A study of Mus musculus with 10 samples.

Results

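DNA methylation marks cytosines of CpG dinucleotides, and 7 genes that write, maintain or remove it in the mouse were followed here: the methyltransferases Dnmt1, Dnmt3a and Dnmt3b, the maintenance cofactor Uhrf1, and the dioxygenases Tet1, Tet2 and Tet3. They were chosen by name, as the rows of the footprint count table whose Ensembl identifiers map to these symbols, and all 7 were found among the 22373 genes of the table. All 7 also passed the filter on low counts, which kept 13484 genes with at least 32 footprints, summed over both libraries, in 1 stage or more. Ribosome-protected mRNA fragments (Ribo-seq footprints, a readout of the ribosomes on each coding sequence) were sequenced from neocortex of wild-type CD-1 mice at 5 stages. These were the embryonic (E) days E12.5, E14, E15.5 and E17 and, on postnatal (P) day 0, P0. Every stage had 2 libraries and there was no treatment or genotype contrast. By the study's methods each library is a pool of many brains of both sexes, and the libraries of a stage are biological duplicates. Footprints of the whole tissue were counted, and fewer cells of a type cannot be told apart from fewer footprints per cell. Less mRNA and fewer ribosomes per mRNA cannot be told apart either, since RNA levels were not used here.

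When DNA is copied, the new strand has no methyl groups. Uhrf1 binds the half-methylated CpG behind the fork and recruits Dnmt1, which copies the mark to the new strand, whereas Dnmt3a and Dnmt3b methylate CpGs that carry no mark. The Tet enzymes oxidise 5-methylcytosine with 2-oxoglutarate as cosubstrate, and base excision repair can then restore an unmodified cytosine. In the cortex, progenitors divide through the embryonic period while their daughters leave the cell cycle as neurons, so the balance of dividing and post-mitotic cells changes with stage.

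The libraries held between 7544404 and 36129988 footprints on genes, and the shallowest was the first P0 library. Between the 2 libraries of a stage the SD of the log2 ratio over 4559 well-counted genes was 0.13 to 0.22 up to E17 and 0.53 at P0. Histone genes took 34.0% to 38.5% of all footprints at E12.5 and 6.32% to 9.83% at P0, so levels are given as CPM, the footprints per 1000000 of the library after TMM scaling, which sets the bulk of genes level. CPM was not divided by coding length, so the text compares each gene with itself across stages and never ranks the genes by level. Marker lists of cell types were also read. All 6 markers of neocortical progenitors and all 6 of cortical neurons were counted at every stage. So was every listed marker of meningeal fibroblasts, red blood cells and endothelium, so detection alone cannot tell which tissue was dissected. The summed progenitor markers fell from 505–528 CPM at E12.5 to 97.5–120 CPM at P0, and the neuron markers went from 1574–1619 to 5216–5354 CPM. Most of the neuron sum was Tubb3 and Map2, and of its 6 genes Tbr1 (-0.03, adjusted p = 0.904) and Bcl11b (0.18, adjusted p = 0.486), log2 fold changes from E12.5 to P0, did not pass.

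The maintenance pair parted over development. Uhrf1 footprints fell at each of the last 3 steps and ended 21.3-fold below their E12.5 level, while Dnmt1 footprints fell 1.73-fold over the same interval. Dnmt3b, the de novo enzyme of the early embryo, fell 6.51-fold, most of it by E15.5, and Dnmt3a, the de novo enzyme of the later brain, fell 1.63-fold. None of the Tet genes passed the test between E12.5 and P0. In the test over all 5 stages (a moderated F test in limma-voom, Benjamini-Hochberg adjusted over 13484 genes), 5 of the 7 genes changed at adjusted p under 0.05, beside 63.8% of all genes tested. The adjusted p-values were 2.09e-06 for Uhrf1, 5.37e-05 for Dnmt3b, 0.000335 for Dnmt3a, 0.000953 for Dnmt1 and 0.0353 for Tet2, and 0.32 and 0.374 for Tet1 and Tet3. The count of 5 fell to 4 with the replicate number as a block, with no filter on low counts, with DESeq2 and without any 1 of the 8 embryonic libraries, and rose to 7 with total counts.

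**Figure D1:**
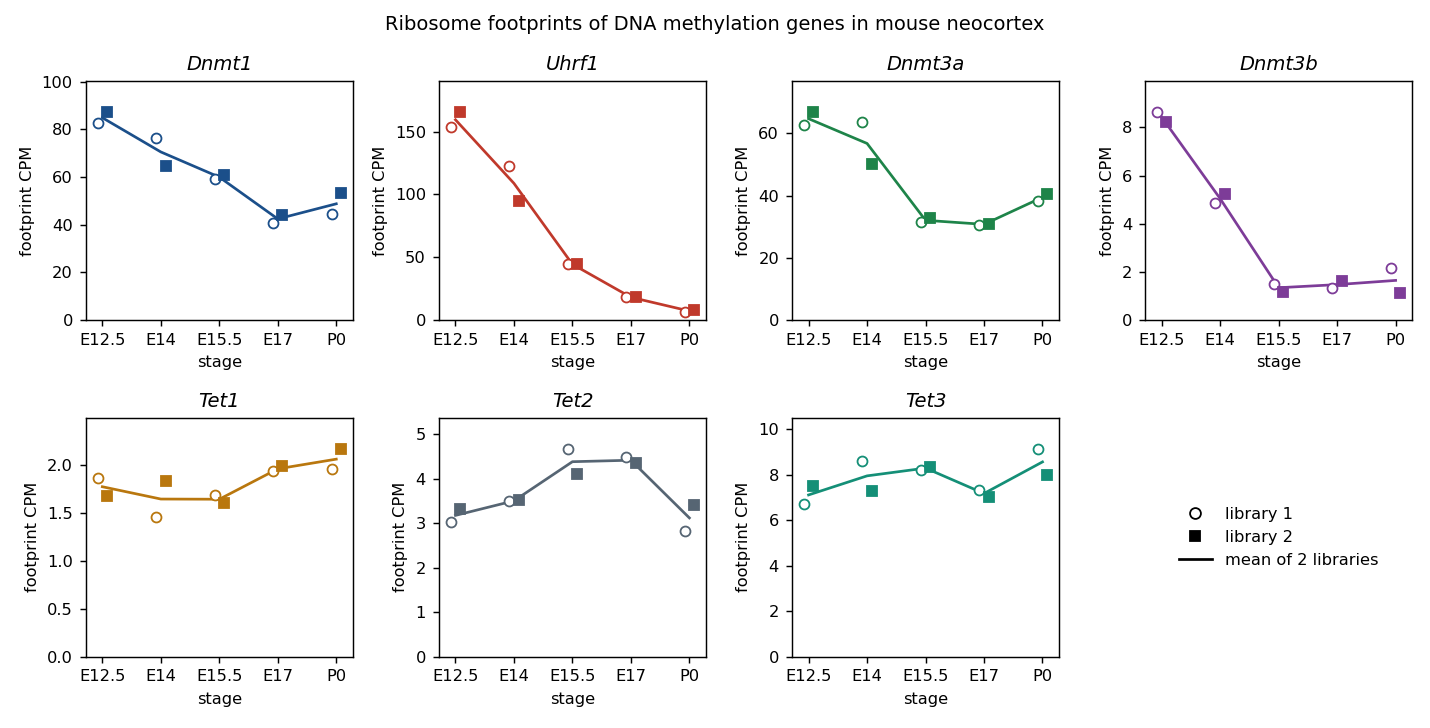
Footprint CPM (after TMM scaling, y axis from 0, scaled per panel) of the 7 genes at 5 stages; open circles and filled squares are the 2 libraries of a stage and the line joins their means. Uhrf1 fell from 153 and 165 CPM at E12.5 to 6.31 and 8.11 CPM at P0, and Tet1 lay between 1.46 and 2.17 CPM throughout.

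Uhrf1 (ENSMUSG00000001228) reads half-methylated DNA and brings Dnmt1 to it. Its footprints stood at 153 and 165 CPM in the E12.5 libraries, 123 and 94.8 in the E14 pair, 44.4 and 44.5 at E15.5, 18.2 and 18.1 at E17, and 6.31 and 8.11 at P0. The order of the stages was the order of age, and no pair of neighbouring stages overlapped. In the same 4 steps the libraries were apart for 53.2%, 76.9%, 67.9% and 55.8% of all genes. The raw counts behind these levels ran from 2791 and 4426 footprints at E12.5 to 58 and 340 at P0. From E14 on the steps were of similar size: the log2 fold change was -1.28 (SE 0.14, adjusted p = 0.000371) from E14 to E15.5, -1.29 (SE 0.15, adjusted p = 0.00743) from E15.5 to E17, and -1.28 (SE 0.17, adjusted p = 0.00293) from E17 to P0. Successive steps share the libraries of the stage between them, so they are not independent. The first step, from E12.5 to E14, was -0.57 (SE 0.14) and did not pass (adjusted p = 0.0944). It passed without P0 library 1 or without P0 library 2, libraries that are not in that comparison but enter the shared estimate of spread. Without both P0 libraries 1067 genes of the whole table were called for that step, against 86 with all libraries.

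Over the whole interval Uhrf1 fell by 4.41 on the log2 scale (SE 0.16, 95% interval -4.79 to -4.04, adjusted p = 5.27e-07). Only 0.616% of the genes tested had an equal or lower value. The step from E15.5 to E17 lost its call when an E15.5 or E17 library was left out, at adjusted p = 0.121 and 0.0738 without E15.5 library 1 or 2 and 0.0593 and 0.0739 without E17 library 1 or 2, with the fold change between -1.30 and -1.28 throughout. In these 4 fits 0, 0, 18 and 0 genes of the whole table were called for that step, against 1219 with all libraries. When only the E17 and P0 libraries were fitted, the last step of Uhrf1 also missed (adjusted p = 0.0865), and no gene in the table was called in that fit, against 2767 with all libraries.

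RefSeq (GRCm38.p6) lists 2 start sites for Uhrf1 on chromosome 17, plus strand, and each promoter (250 bases before the start and 50 after) holds 1 match to TTNNCGC, where each N was C or G. This word was searched on both strands as a form of the site bound by E2F, the factor family of S phase genes. Overlapping matches on opposite strands were counted separately. In the windows below the word is in capitals, read 5′ to 3′ on the gene's strand. The first lies 48 bases before the upstream start, at chr17:56303278-56303307, and the second 184 bases before the downstream start, at chr17:56304118-56304147.
Uhrf1 upstream start: tgctttctcgcTTCCCGCcacagcgccagc
Uhrf1 downstream start: ccgagtcgggtTTCGCGCgcccaggcgtct

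Such a word was in 9.57% of all 32851 promoters of the same length and in 18 of the 24 promoters (75%) listed for 22 of 28 S phase genes. The CCAAT box, bound by NF-Y, was in both Uhrf1 promoters and in 37.4% of all promoters. It was in 5 of the 12 promoters listed for the 7 genes. The most upstream start of Dnmt1 had 5 matches and its most downstream start 3. TTTGAA is the centre of the CHR element of late cell cycle genes. It was in neither Uhrf1 promoter, in 2 of the 12 and in 17.9% of all. These matches describe letters in a window, not occupied sites.

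Dnmt1 (ENSMUSG00000004099) copies the methyl mark after replication. It was measured at 82.6 and 87.3 CPM at E12.5, 76.3 and 64.9 in the E14 pair, 59.2 and 60.9 at E15.5, 40.7 and 44.2 at E17, and 44.4 and 53.3 at P0. Means fell with each stage to E17, and the P0 libraries lay just above the E17 pair. Between E12.5 and P0 the log2 fold change was -0.79 (SE 0.12, 95% interval -1.08 to -0.51, adjusted p = 0.000688), and 24.7% of the genes tested had an equal or lower value. By E15.5 the change from E12.5 was -0.50 (SE 0.12, adjusted p = 0.00987), a call lost without E12.5 library 2 (adjusted p = 0.0622) or E15.5 library 1 (0.0658). With total counts in place of TMM the change of Dnmt1 by E15.5 was -0.15 (adjusted p = 0.285), and the call was lost.

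Of the 4 successive steps of Dnmt1 the only one to pass was E15.5 to E17, at -0.50 (SE 0.12, adjusted p = 0.0434), and this call was lost without any 1 of the 8 embryonic libraries (adjusted p between 0.056 and 0.242) and kept without either P0 library. The calls over the whole table were few in the fits without an E15.5 or E17 library, as given for Uhrf1. The steps E12.5 to E14 (-0.27, adjusted p = 0.324), E14 to E15.5 (-0.23, adjusted p = 0.183) and E17 to P0 (0.21, 95% interval -0.08 to 0.50, adjusted p = 0.262) did not pass. From E15.5 to P0 the change was -0.29 (adjusted p = 0.108), or -0.41 (adjusted p = 0.0345) without P0 library 2.

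Dnmt1 has 3 RefSeq starts on chromosome 9, minus strand. An E2F word occurs only at the most downstream of them, where 2 lie before the start, 219 and 158 bases away at chr9:20952824-20952853 and chr9:20952763-20952792, and 1 lies after it. The windows before the start are shown beside those of Uhrf1 because both genes act at the fork and fell by such different amounts. Both words match on the opposite strand and so read as the reverse complement of TTCGCGC.
Dnmt1 first word: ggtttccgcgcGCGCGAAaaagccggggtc
Dnmt1 second word: gcaagatgccaGCGCGAAcagctccagccc

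None of the promoters of Dnmt3a, Dnmt3b or the Tet genes held an E2F word, so that 3 of the 12 promoters listed for the 7 genes did. That promoter of Dnmt1 held 33 CpGs in 300 bases and the downstream promoter of Uhrf1 also 33, against a median of 7 over all promoters. The Tet2 promoter was the richest of the 12, with 57, more than or equal to 99.9% of all promoters. The poorest was the most upstream start of Dnmt1, with 2.

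The divergence of the maintenance pair can be read within each library, where scaling cancels. The ratio uses the same counts as the fold changes and is not separate evidence. The ratio of Uhrf1 to Dnmt1 footprints was 1.86 and 1.90 at E12.5, 1.61 and 1.46 in the E14 pair, 0.75 and 0.73 at E15.5, 0.45 and 0.41 at E17, and 0.14 and 0.15 at P0. Every stage lay below the one before it with no overlap of libraries. At P0 the exact 95% intervals of the 2 ratios, which cover counting error only, were 0.106 to 0.188 and 0.135 to 0.171. Because coding lengths were not used, the ratio shows a change between stages and not how many molecules of one stand against the other.

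**Figure D2:**
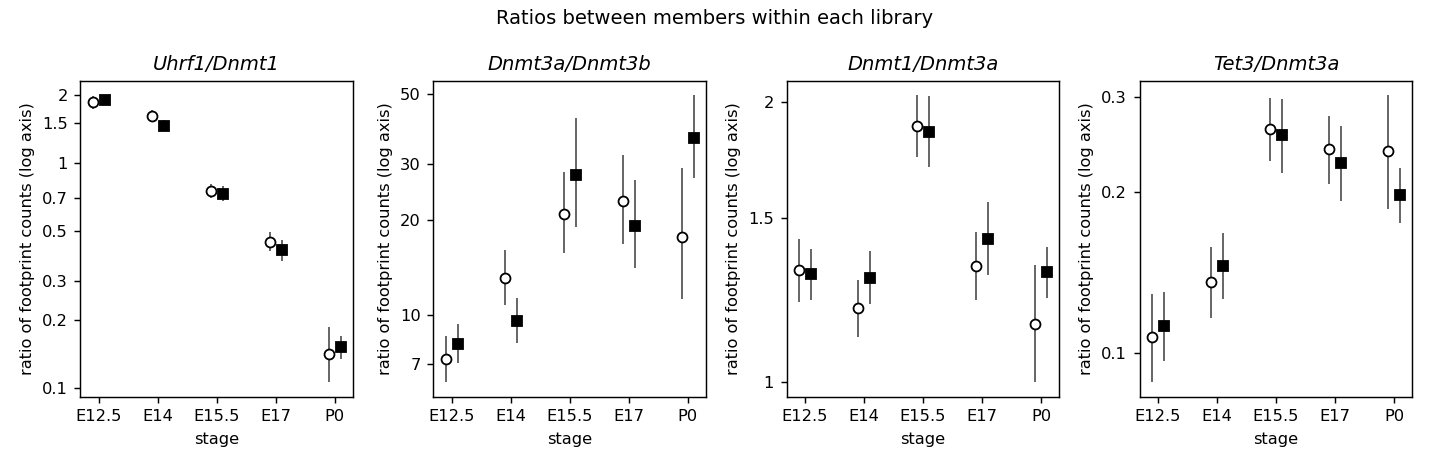
Ratio of footprint counts between 2 genes in each library (log axis) at 5 stages; open circles are library 1, filled squares library 2 and bars exact 95% intervals for counting error. Uhrf1 over Dnmt1 fell at every stage, Dnmt3a over Dnmt3b rose from 7.26 and 8.13 to 17.7 and 36.2, Dnmt1 over Dnmt3a peaked at E15.5, and Tet3 over Dnmt3a was higher from E15.5 on.

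Dnmt3b (ENSMUSG00000027478) was at 8.63 and 8.22 CPM at E12.5, 4.86 and 5.23 in the E14 pair, 1.51 and 1.18 at E15.5, 1.33 and 1.61 at E17, and 2.17 and 1.12 at P0. The E12.5 and E14 pairs stood apart from each other and from all later libraries, and the last 3 stages overlapped. Few footprints lay behind the late values, with 50 and 28 at E15.5, 42 and 43 at E17, and 20 and 47 at P0. The log2 fold change was -1.88 (SE 0.23, adjusted p = 0.000583) from E14 to E15.5 and -2.62 (SE 0.23, adjusted p = 6.13e-05) from E12.5 to E15.5. The first step, -0.73 (SE 0.18), missed at adjusted p = 0.0942 and passed without P0 library 1 or P0 library 2. Without both P0 libraries the calls over the whole table rose in that step, as given for Uhrf1.

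After E15.5 no change of Dnmt3b was detectable at this depth. The difference from E15.5 to P0 was -0.09 with a 95% interval of -0.72 to 0.55 (adjusted p = 0.825), and that from E17 to P0 was -0.19 (interval -0.81 to 0.43, adjusted p = 0.648). Its sign rests on single libraries: without P0 library 2 these became 0.72 (adjusted p = 0.0834) and 0.63 (0.139). Between E12.5 and P0 Dnmt3b fell by 2.70 (SE 0.23, adjusted p = 2.28e-05), and 5.07% of genes had an equal or lower value. Without P0 library 2 the value was -1.89 and still passed.

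Dnmt3a (ENSMUSG00000020661) was at 62.7 and 66.8 CPM at E12.5, 63.5 and 50.1 in the E14 pair, 31.4 and 32.8 at E15.5, 30.6 and 31.0 at E17, and 38.4 and 40.6 at P0. The first 2 stages overlapped, the level at E15.5 was 2.02-fold below E12.5, and the P0 pair lay above the E15.5 and E17 pairs but below both early stages. The drop fell in a single step, E14 to E15.5, at -0.81 (SE 0.12, adjusted p = 0.00156). From E12.5 to E15.5 the change was -1.01 (SE 0.12, adjusted p = 0.000308). The later rise did not pass under TMM scaling: from E17 to P0 the change was 0.36 (SE 0.13, 95% interval 0.07 to 0.65, adjusted p = 0.077) and from E15.5 to P0 0.31 (SE 0.13, adjusted p = 0.0968). The E17 to P0 change passed without E14 library 1 (adjusted p = 0.0461) or E14 library 2 (0.0468), which again enter only through the spread. With total counts in place of TMM the later rise of Dnmt3a was called, at 0.48 from E17 to P0 (adjusted p = 0.0245) and 0.48 from E15.5 to P0 (adjusted p = 0.0144). Between E12.5 and P0 the change was -0.71 (SE 0.13, adjusted p = 0.0013).

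The pair of de novo enzymes shifted in proportion within libraries. Dnmt3a over Dnmt3b footprints was 7.26 and 8.13 at E12.5, 13.1 and 9.58 in the E14 pair, 20.9 and 27.7 at E15.5, 22.9 and 19.2 at E17, and 17.7 and 36.2 at P0. All 6 libraries from E15.5 on were above all 4 earlier ones, while the last 3 stages overlapped. Dnmt1 over Dnmt3a moved less, at 1.32 and 1.31, 1.20 and 1.30, 1.88 and 1.86, 1.33 and 1.43, and 1.16 and 1.31 in stage order, so the E15.5 libraries alone stood above the rest. At that stage Dnmt3a had already reached its low level and Dnmt1 had not.

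The Tet enzymes start demethylation, and their footprints were few. Tet3 (ENSMUSG00000034832) was at 6.71 and 7.51 CPM at E12.5, 8.61 and 7.29 in the E14 pair, 8.22 and 8.36 at E15.5, 7.33 and 7.02 at E17, and 9.13 and 7.99 at P0. Each stage overlapped with at least 1 other, and no comparison passed. From E12.5 to P0 its log2 fold change was 0.23 (95% interval -0.08 to 0.55, adjusted p = 0.171).

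Tet1 (ENSMUSG00000047146) was at 1.87 and 1.68 CPM at E12.5, 1.46 and 1.84 in the E14 pair, 1.69 and 1.60 at E15.5, 1.94 and 1.99 at E17, and 1.96 and 2.17 at P0, from 18 to 91 footprints per library. The E17 and P0 libraries were above all 6 earlier ones, but no comparison passed. From E12.5 to P0 the difference was 0.27 with a 95% interval of -0.15 to 0.68 (adjusted p = 0.224), which leaves room for a rise of up to that size.

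Tet2 (ENSMUSG00000040943) had its highest levels under TMM scaling in the middle of the period. Its libraries read 3.02 and 3.33 CPM at E12.5, 3.49 and 3.52 in the E14 pair, 4.67 and 4.09 at E15.5, 4.48 and 4.35 at E17, and 2.83 and 3.41 at P0. The E15.5 and E17 libraries overlapped with each other and lay above the other 6, and the P0 pair overlapped with E12.5. Tet2 rose by 0.46 from E12.5 to E15.5 (SE 0.14, adjusted p = 0.0282), a call lost without E12.5 library 1 (adjusted p = 0.134), E12.5 library 2 (0.0813) or E15.5 library 1 (0.183). The step E14 to E15.5, 0.33, missed at adjusted p = 0.0954 and passed without P0 library 1 (0.0485) or P0 library 2 (0.0454). From E15.5 to P0 it fell by 0.43 (SE 0.14, adjusted p = 0.0492), and this call was lost without any 1 of the 10 libraries (adjusted p between 0.059 and 0.261). The call was also lost with DESeq2 size factors (-0.38, adjusted p = 0.0682) and with total counts (-0.27, adjusted p = 0.174). With total counts Tet2 was called higher at P0 than at E12.5 (0.55, adjusted p = 0.0112). P0 library 1 held only 26 Tet2 footprints.

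With Dnmt3a lower and no detectable change of Tet3, Tet3 over Dnmt3a within a library was 0.107 and 0.112 at E12.5, 0.136 and 0.146 in the E14 pair, 0.262 and 0.255 at E15.5, 0.240 and 0.226 at E17, and 0.238 and 0.197 at P0. All 6 libraries from E15.5 on were above the 4 earlier ones. Tet3 over Tet2 was 1.64 and 1.61 at E17 and 3.23 and 2.34 at P0, where library 1 rests on 26 Tet2 footprints (exact 95% interval 2.06 to 5.23). The P0 pair overlapped earlier stages, with 2.47 in E14 library 1.

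The number of genes called (adjusted p under 0.05 and a change of at least 0.32 on the log2 scale) was read against the share of all tested genes called in the same comparison. From E12.5 to E14 none of the 7 was called in limma-voom, beside 0.638% of all genes (0.497% higher and 0.141% lower). Uhrf1 and Dnmt3b had an unadjusted p of 0.0031 and 0.00305 there, DESeq2 called 1 gene and edgeR 0. From E14 to E15.5, 3 of 7 were called, all lower, beside 36.1% of all genes (16.5% higher and 19.6% lower). From E15.5 to E17, 2 of 7 were called, both lower, beside 9.04% (5.61% higher and 3.43% lower), and from E17 to P0, 1 of 7, lower, beside 20.5% (9.46% higher and 11.1% lower).

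Over the longer intervals, 4 genes were lower and 1 higher from E12.5 to E15.5, beside 46.2% of all genes (22.2% higher and 24% lower). From E15.5 to P0, 2 were lower, beside 34% (17.1% higher and 17% lower), and from E12.5 to P0, 4 were lower and none higher, beside 62.1% (30.1% higher and 32% lower). The last count was also 4 without P0 library 1 or without P0 library 2. The libraries of E12.5 and P0 did not overlap for 6 of the 7 genes, as for 75.2% of all genes. With 7 genes and most of the table changing, the total of 4 calls from E12.5 to P0 lies near the background.

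**Figure D3:**
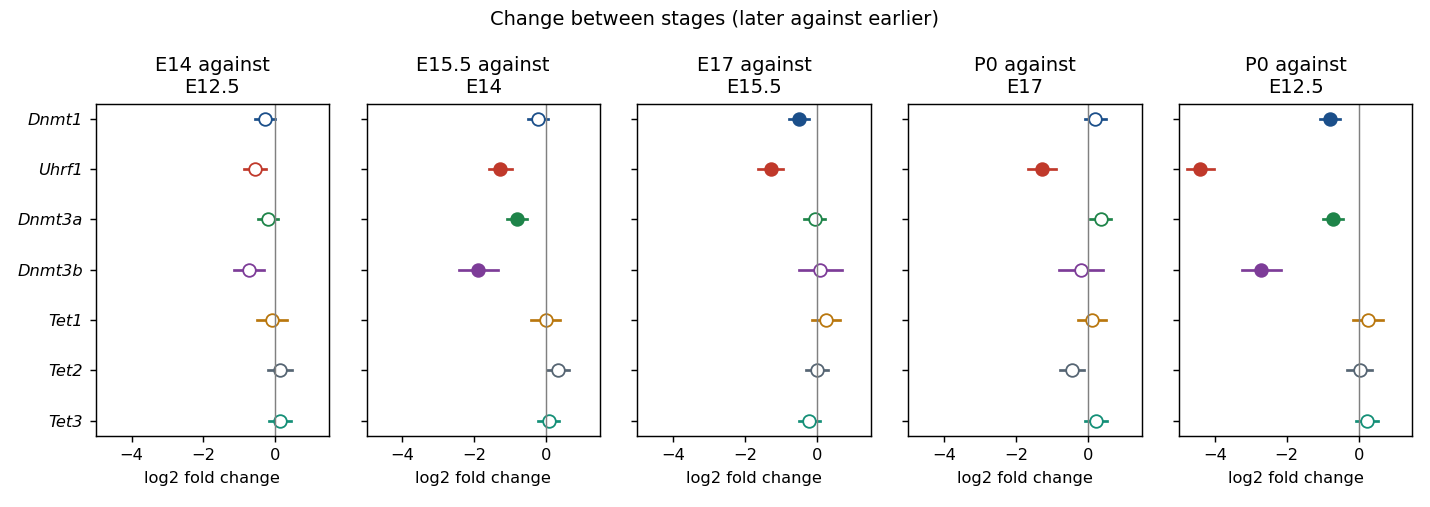
Log2 fold change (x axis, later against earlier stage) of each gene in the 4 successive steps and over the whole interval; points are limma-voom estimates, bars 95% intervals, and filled points were called (adjusted p under 0.05 and at least 0.32 on this scale). Uhrf1 is filled in each step after E14, Dnmt3a and Dnmt3b in the step to E15.5, and no Tet gene in any panel.

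The choice of scaling bears on the smaller changes. Scaling by total counts alone, with the large histone share left in, moved the median gene by 0.51 on the log2 scale between E12.5 and P0 and the share of higher calls among all called genes from 48.5% to 72%. Under it Uhrf1 (-3.89) and Dnmt3b (-2.19) kept their calls, Dnmt1 (-0.26, adjusted p = 0.0705) and Dnmt3a (-0.18, adjusted p = 0.192) lost theirs, and Tet1 (0.79), Tet2 (0.55) and Tet3 (0.75) were called higher. Relative to the median gene the values were -4.40 for Uhrf1, -0.78 for Dnmt1, -0.70 for Dnmt3a and 0.28 for Tet1 under both scalings. This follows from the arithmetic, since scaling shifts all genes of a library together, and it does not favour either scaling. For E14 to E15.5 total counts moved the median gene by 0.29 and the share of higher calls from 45.6% to 72.7%, and 2 Tet genes joined the 3 lower calls, Tet2 at 0.62 and Tet3 at 0.37. In that step Dnmt1 turned from -0.23 to 0.07, neither called. The share of higher calls moved by over 10 points in 4 more comparisons, from 77.9% to 90.9% (E12.5 to E14), 46.1% to 63.3% (E17 to P0), 48.1% to 72.3% (E12.5 to E15.5) and 50.1% to 68.1% (E15.5 to P0).

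In the step to E15.5, in which Dnmt3a, Dnmt3b and Uhrf1 fell together, markers of other tissue also moved. All 5 markers of meningeal fibroblasts (the collagens Col1a1, Col1a2 and Col3a1, with Lum and Dcn) summed to 59.3–68.9 CPM at E14 and 2.28–2.35 at E15.5. The 5 choroid plexus markers summed to 1111–1117 CPM at E14 and 10.5–13.3 at E15.5, nearly all of it Ttr. The 5 red blood cell markers went from 5245–5789 to 3518–3780 CPM and the 4 endothelial markers from 19.3–25.3 to 6.63–7.83. In the same step the progenitor markers went from 458–504 to 234–261 CPM and the neuron markers from 2108–2211 to 4181–4274. The list for ganglionic eminence (Dlx1, Dlx2, Dlx5, Gad1, Gad2 and Lhx6) went from 31.8–35.6 to 117–122 CPM. Its genes do not tell that tissue from interneurons within the cortex. Between E12.5 and E14, when Dnmt3b went from 8.43 to 5.04 CPM on average, the meningeal markers went from 95.6–98.9 to 59.3–68.9 CPM and the red blood cell markers from 6246–6504 to 5245–5789, while the choroid plexus markers went from 272–323 to 1111–1117. The part of any of these cell types in the changes of the 7 genes was not tested.

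**Figure D4:**
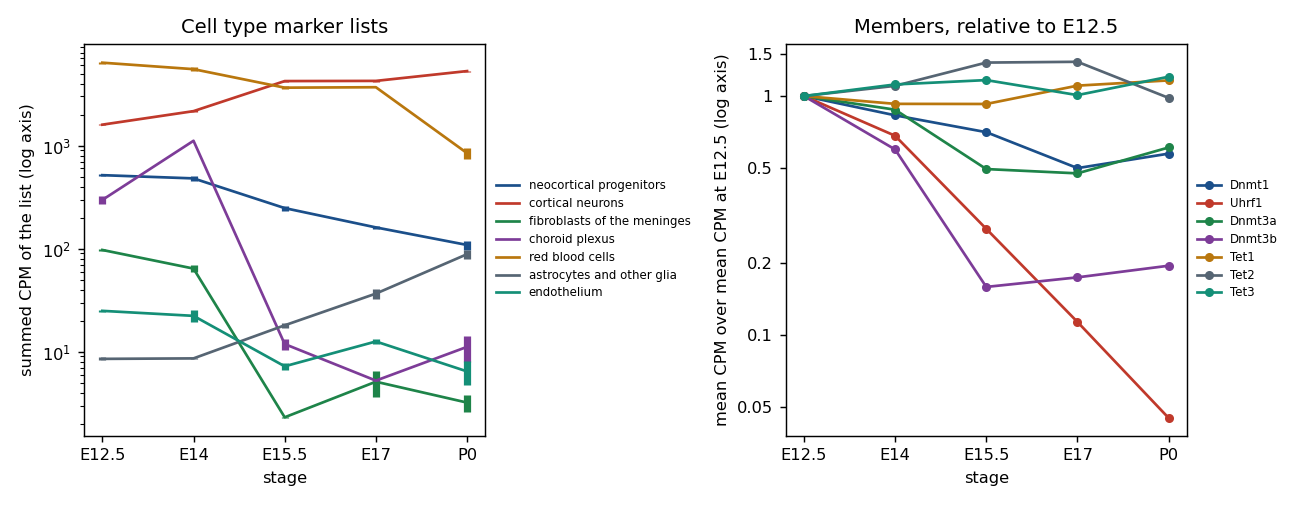
Left, summed CPM of cell type marker lists by stage (log axis), with thick bars from the lower to the higher library. Right, mean CPM of each gene over its own mean at E12.5 (log axis). Meningeal, choroid plexus and progenitor markers dropped between E14 and E15.5, the step in which Dnmt3b, Dnmt3a and Uhrf1 fell. Uhrf1 went on falling to P0. The part of any of these cell types in the changes was not tested.

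The rest of the machinery was read from 7 lists, which were chosen with earlier results of these data known. Their counts stand beside 30.1% of all genes called higher and 32% called lower from E12.5 to P0. Of 28 S phase genes (helicase, polymerase, clamp and nucleotide supply), all 28 fell between E12.5 and P0, with a median of -2.72, beside a median of -0.01 over all genes. Uhrf1, at -4.41, was below all 28, among them Cdc6 (-4.20), which loads the helicase, and Mcm3 (-3.81), a helicase subunit. Dnmt1, at -0.79, and Dnmt3a, at -0.71, were each above 27 of the 28, and Dnmt3b, at -2.70, stood in the middle with 14 on either side. In the step to E15.5 the median of the S phase genes was -0.83 with 24 of 28 lower, and both Uhrf1 (-1.28) and Dnmt3b (-1.88) were below all 28.

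Of 10 partners of maintenance methylation 9 were tested, 7 of them lower and 2 higher from E12.5 to P0, with a median of -1.24. Hells, a chromatin remodeller needed for methylation of repeats, fell from 24.6 and 21.8 CPM to 1.20 and 1.34 (-4.12, SE 0.19, adjusted p = 1.03e-06). Cdca7l, a relative of the protein that activates Hells, fell by 3.98 (SE 0.28, adjusted p = 7.15e-06). These changes are close in size to that of Uhrf1. The risers were Zfp57, which guards methylation at imprinted loci, from 39.6 and 43.2 to 71.1 and 94.3 CPM (1.00, SE 0.13, adjusted p = 0.000282), and the acetyltransferase Kat5 (0.39, adjusted p = 0.0154). Uhrf2, the paralog of Uhrf1, which was named after its values were seen, fell by 1.24 (adjusted p = 0.000208).

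Of the 3 listed partners of de novo methylation 2 were tested and neither was called, with a median of -0.07. Of 13 base excision and demethylation genes tested, of 14 listed, 10 were lower and 1 higher, with a median of -1.32. Gadd45g, a stress-induced factor linked to active demethylation, fell from 64.3 and 77.5 CPM at E12.5 to 5.98 and 5.51 at P0 (-3.64, SE 0.18, adjusted p = 1.28e-06), and Neil3, a glycosylase, fell by 3.55 (SE 0.33, adjusted p = 3.74e-05) to 3 and 16 footprints at P0. The glycosylase Neil1 rose by 0.83 (SE 0.20, adjusted p = 0.00626). Most genes of this list, which act after or beside the Tet enzymes, fell, and no Tet gene was called lower over this interval.

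Among 10 genes for CXXC proteins, which bind unmethylated CpG, and for partners of the Tet enzymes, 3 were higher and 1 lower, with a median of 0.06. Cxxc4, which can bind Tet2 and promote its degradation, rose from 6.32 and 7.44 CPM at E12.5 to 41.9 and 40.1 at P0 (2.56, SE 0.12, adjusted p = 1.22e-06). It stood at 10.2 and 10.05 CPM at E15.5 and at 17.5 and 19.9 at E17. Fbxl19 rose by 0.88 (adjusted p = 0.0053), and the demethylase gene Kdm2a fell by 0.86 (adjusted p = 0.0303) with P0 libraries as far apart as 10.9 and 22.3 CPM.

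Of 10 readers of methylated CpG 3 were higher and 4 lower, with a median of -0.06, shares near those of all genes (30.1% and 32%). Zbtb38 rose by 2.02 (SE 0.17, adjusted p = 1.79e-05), from 2.64 and 2.28 CPM to 8.48 and 10.8, and Zbtb4 by 2.27 (SE 0.37, adjusted p = 0.000865), and both encode zinc finger proteins that bind methylated DNA. Mbd6 (-1.32, adjusted p = 0.00298) and Mbd4 (-0.99, adjusted p = 0.0165) fell, with P0 libraries at 1.30 and 0.67 CPM for Mbd6 and at 2.39 and 5.65 CPM for Mbd4, the lower of which rests on 22 footprints. Of 10 genes that supply the methyl donor or 2-oxoglutarate, 6 were lower and 2 higher (median -0.57), beside the same 32% and 30.1% of all genes. Idh2 fell by 1.82 (SE 0.16, adjusted p = 2.5e-05) and Idh1 rose by 0.84 (SE 0.20, adjusted p = 0.00594), the mitochondrial and the cytosolic enzyme that make 2-oxoglutarate. The methionine synthase gene Mtr fell by 1.35 (adjusted p = 0.000356), and Mat2b, for a subunit that regulates synthesis of the methyl donor, rose by 0.33 (adjusted p = 0.0265).

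**Figure D5:**
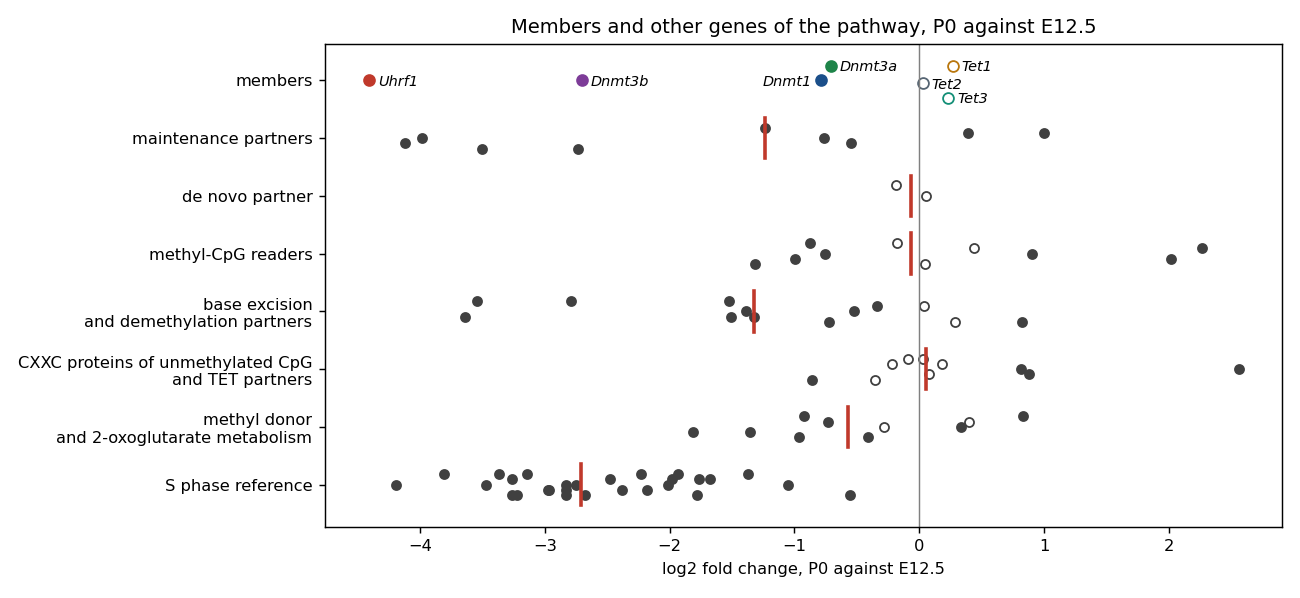
Log2 fold change from E12.5 to P0 of the 7 genes and of the genes of 7 lists. Filled points were called (adjusted p under 0.05 and at least 0.32 on this scale), and red bars are list medians. All 28 S phase genes lie below 0 with a median of -2.72, Uhrf1 lies below them all, and Dnmt1 and Dnmt3a lie near their upper end.

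The genes whose profile over the 10 libraries was most like that of each member were found by the root mean square difference of centred log2 CPM among 7221 genes with a mean of at least 200 footprints. For Uhrf1 these were Cdc6 (0.17), Kif20a (0.23) and Ccnb1 (0.24), against a median of 1.65 over all genes. For Dnmt1 they were Eftud2 (0.07), Prpf4 (0.08) and Ubap2l (0.09), with a median of 0.48, and for Dnmt3a Pus1 (0.09), Anxa6 (0.10) and Lap3 (0.10), with a median of 0.55. For Dnmt3b they were Vcam1 (0.24), Ttyh1 (0.30) and Cnn2 (0.31), with a median of 1.12. For Tet1 they were Uqcrq, Vps25 and Ghitm (0.07 to 0.09), for Tet2 Fem1b, Ten1 and Arpc5l (0.07 to 0.09), and for Tet3 Ngrn, Fscn1 and Atg4b (0.04 to 0.07). The points share libraries and depth, and the choice is not stable: 8 of these 21 genes were again among the nearest 3 by Pearson correlation and 6 without P0 library 1.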

How the data were processed

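Ribo-seq footprint counts per gene were used as the authors deposited them, as raw counts for 10 libraries. According to the study's methods, adapters were trimmed with cutadapt, duplicate read sequences and random end bases were removed, contaminants were filtered with Bowtie 2, and reads were aligned with STAR to a GENCODE annotation, with multimapping reads kept. The submitters' processing notes name STAR 2.7.0. Whether the table came from the isoform-level quantification named there is not given in the sources used here. Kept multimapping reads can add reads of near-identical copies to a gene.

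Groups were the 5 stages of the labels. Genes with at least 32 footprints summed over a stage's 2 libraries in 1 stage or more were tested (13484 of 22373), with TMM scaling, limma-voom (limma 3.58.1, edgeR 4.0.16, R 4.3.3), 1 coefficient per stage over all 10 libraries, 7 contrasts and an F test. A call needed an adjusted p under 0.05 over all genes tested and a change of at least 1.25-fold. log2 CPM used a prior count of 2. Ratios have exact 95% binomial intervals. Alternatives were DESeq2 1.42.0, edgeR's quasi-likelihood test, other scalings and filters, sample quality weights, fits of 2 stages only, a replicate block, and leaving out each library; a fit without both P0 libraries was added after seeing the data. A stage left with 1 library was assumed to vary like the others. Fits were also run on simulated data, drawn with the same spread for a gene at every stage. The wider spread between the P0 libraries was therefore not part of that test.

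Genes named in full were the 7 members; in each list, up to 2 called risers and 2 called fallers with the largest change from E12.5 to P0; and the 3 nearest profiles per member. The members and lists were chosen with earlier results of these data known. Symbols matched 22274 identifiers. Promoters came from RefSeq (GRCm38.p6), with entries for all 7 members. Gene coordinates, levels per coding length and protein sequences were not analysed here. Depth limits precision mostly for Dnmt3b and the Tet genes, the latter with 18 to 335 footprints per library.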

Additional observations from a re-analysis of the deposited data

How the results depend on the processing

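Between E12.5 and P0 the 4 falls kept their direction in every alternative run and their calls in all but total-count scaling (5 called, 3 of them higher) and the filter of a mean of at least 100 counts, which removed Dnmt3b. Other counts of called genes moved more. From E12.5 to E14 the 0 calls became 1 with DESeq2, 2 with quality weights, 2 without both P0 libraries, and 0 to 2 leaving out each library. Of all genes, 86 were called there, against 399 with DESeq2, 655 with quality weights and 1067 without both P0 libraries. From E14 to E15.5 total counts gave 5, and leaving out a library 3 to 4. From E15.5 to E17 the 2 became 1 with edgeR and 1 with no filter, and 0 to 2 leaving out a library, with 0 without either E15.5 or E17 library, fits in which 0, 0, 18 and 0 genes of the whole table were called, against 1219. From E17 to P0 the 1 became 2 with total counts, 0 with only the 2 stages (no gene in the table was called in that fit, against 2767), and 1 to 2 leaving out a library. From E12.5 to E15.5 the 5 became 3 to 5, with 3 without E12.5 library 2 or E15.5 library 1, and with total counts the 5 held Tet3 (0.57, adjusted p = 0.00639) in place of Dnmt1. From E15.5 to P0 the 2 became 1 with DESeq2 size factors, 1 with the DESeq2 test, and likewise 1 with quality weights, no filter, the filter of 100 and only the 2 stages, and 1 to 2 leaving out a library. The F test's 5 became 3 under the filter of 100, 4 with DESeq2, 4 with no filter, 7 with total counts, and 4 to 5 leaving out a library. Between E12.5 and P0 the 8 calls in the methyl donor list became 4 with only the 2 stages and 5 with quality weights, and all 28 S phase calls were also made without P0 library 1. The causes were not tested.

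The replicate numbers of different stages share only a number: of 10 pairs of stages, 5 had deviations correlated above 0.1, from -0.64 to 0.43. With the replicate block, 1 gene was called from E15.5 to E17, 1 from E15.5 to P0 and 4 by the F test. The block changed no other count of called members.

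Signs turned only where the main value was not called. Under total counts these were Dnmt1 (0.067) and Tet1 (0.28) from E14 to E15.5, Dnmt3a (0.00318) from E15.5 to E17, Tet1 (0.27) from E12.5 to E15.5 and Dnmt3b (0.071) from E15.5 to P0. From E15.5 to P0 Dnmt3b also turned with edgeR (0.11), DESeq2 (0.20) and quality weights (0.017), and Tet3 with no filter (-0.016). With DESeq2 Dnmt3b turned from E17 to P0 (0.062). From E14 to E15.5 Tet1 turned without histone genes in the scaling (0.00805) and with no filter (0.0021). Tet2 turned from E15.5 to E17 with quality weights (-0.000296) and no filter (-0.00133), and from E12.5 to P0 with quality weights (-0.00389). Leaving out a library gave -0.27 to 0.059 for Tet1 from E12.5 to E14, -0.16 to 0.17 for Tet1 and -0.062 to 0.18 for Tet3 from E14 to E15.5, -0.051 to 0.29 for Dnmt3b and -0.086 to 0.11 for Tet2 from E15.5 to E17, -0.38 to 0.63 for Dnmt3b from E17 to P0, -0.28 to 0.72 for Dnmt3b and -0.049 to 0.17 for Tet3 from E15.5 to P0, and -0.13 to 0.10 for Tet2 from E12.5 to P0.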
